A study of Mus musculus with 26 samples.

Results

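Bipolar cells carry the light signal from photoreceptors to amacrine and ganglion cells. ON bipolar cells sense glutamate through the receptor mGluR6, whose G protein keeps the cation channel TRPM1 shut in the dark, while OFF bipolar cells use ionotropic glutamate receptors. The 8 bipolar cell genes described here were chosen by name: Grm6 (the receptor mGluR6), Trpm1 (the channel), Gng13 (a G protein γ subunit of ON bipolar cells), Prkca (protein kinase C α, the usual marker of rod bipolar cells), Pcp2 (a regulator of Gαo in ON bipolar cells), Cabp5 (a calcium-binding protein of rod bipolar cells and some cone bipolar cells), Vsx1 (a homeobox factor of some cone bipolar cells) and Grik1 (a kainate receptor subunit of OFF bipolar cells). All 8 were found among the 37991 genes of the table, and all 8 passed the filter on low counts in each of the 5 comparisons.

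The mice were rd10 animals (B6.CXB1-Pde6brd10/J), in which a mutation of the rod gene Pde6b makes rods degenerate, and this mutation is shared by every group, controls included. Pups were injected intraperitoneally from postnatal day (PN) 9 to PN24 with saline or with 1 of 5 inhibitors of chromatin enzymes, and tissue was taken at PN24. Whole-retina libraries came from 4 saline and 2 DZNep (EZH2 inhibitor) samples, 3 saline and 3 UNC1999 (EZH2 inhibitor) samples, 2 saline and 2 UNC0642 (G9a/GLP inhibitor) samples, and 3 saline and 3 Romidepsin (HDAC inhibitor) samples. In the fifth experiment, GSK2879552 (LSD1 inhibitor) or saline was given to rd10 mice crossed with the reporter strain B6.Cg-Tg(Nrl-EGFP)1Asw/J. From these mice EGFP-positive rods, marked through the Nrl promoter, were sorted, giving 2 libraries in each group. Each treatment had its own controls. UNC1999 was dissolved in a mixture of DMSO, PEG300, Tween and saline. The study gives saline for the controls of its RNA-seq and diluent for those of its retinal sections. With saline controls, compound and vehicle cannot be told apart in that experiment. The replicates are labelled as biological; p-values measure the spread between these libraries. Libraries held 7289460 to 36354094 counts. In what follows, an error on a CPM value is the SD over libraries and an error on a log2 value is the SE of the fit.

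The genes lie on 6 chromosomes of the mouse build NCBIM37, and each is a protein-coding gene. Grm6 spans chr11:50664187-50679710 and Prkca chr11:107794701-108205242, Trpm1 chr7:71298721-71414643 and Cabp5 chr7:13983481-13994236, Gng13 chr17:25854116-25856351, Pcp2 chr8:3623371-3625545, Vsx1 chr2:150506438-150515096 and Grik1 chr16:87896441-88289947. Their longest coding transcripts differ widely in length, from 524 bases for Pcp2, 719 for Gng13 and 1777 for Cabp5 to 2894 for Grik1, 3791 for Vsx1, 4330 for Grm6, 5690 for Trpm1 and 8409 for Prkca. In 4 of them the exons overlap a gene on the opposite strand: 599 exonic bases of Grm6 with Gm12660, 399 of Gng13 with Chtf18, 857 of Pcp2 with 2900053A13Rik and 30 of Prkca with Apoh. Whether counting used strand is not given in the sources used here, so reads in those stretches cannot be assigned with certainty.

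The promoters of the 3 members with the largest fall under DZNep are shown because these genes moved together in that experiment. Each is the RefSeq window (build GRCm38.p6) from 250 bases before to 50 bases after a transcription start, written 5′ to 3′ on the gene's strand. The 6 letters TAATCC or their reverse complement GGATTA, the core bound by the photoreceptor and bipolar factors CRX and OTX2, are in capitals.
Grm6, chr11:50850435-50850734, + strand: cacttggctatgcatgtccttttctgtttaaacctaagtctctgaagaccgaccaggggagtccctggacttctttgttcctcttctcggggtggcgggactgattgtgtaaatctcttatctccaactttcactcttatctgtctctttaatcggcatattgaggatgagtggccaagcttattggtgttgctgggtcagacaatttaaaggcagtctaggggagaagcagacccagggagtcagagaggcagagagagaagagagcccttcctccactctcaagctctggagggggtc
Trpm1, chr7:64153585-64153884, + strand: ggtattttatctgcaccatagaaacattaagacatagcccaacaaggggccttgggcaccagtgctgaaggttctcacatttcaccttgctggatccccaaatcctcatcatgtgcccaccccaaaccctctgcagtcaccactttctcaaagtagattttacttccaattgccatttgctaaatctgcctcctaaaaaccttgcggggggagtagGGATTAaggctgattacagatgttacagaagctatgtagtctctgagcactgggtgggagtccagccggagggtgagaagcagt
Cabp5, chr7:13397905-13398204, + strand: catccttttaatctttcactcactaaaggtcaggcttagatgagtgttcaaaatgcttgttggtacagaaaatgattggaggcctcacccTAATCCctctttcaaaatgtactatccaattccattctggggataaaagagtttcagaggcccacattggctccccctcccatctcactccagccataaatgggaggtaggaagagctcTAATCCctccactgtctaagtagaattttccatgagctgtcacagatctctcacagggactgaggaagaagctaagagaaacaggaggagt
The letters were found 34 bases before the first start of Trpm1 and at 160 and 41 bases before the start of Cabp5, and were not in the Grm6 window. The 7 members with a RefSeq entry (Grik1 had none) have 12 promoter windows, of which 2 held the letters, as did 7.06% of all 32851 promoters in the table. TAATTA, a homeobox core, was in 1 window of Pcp2 (5.29% of all promoters), and the E-box CATATG was in none of the members' windows (3.91% of all). A match is a description of the sequence only.

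In the 12 saline-treated control retinas the members were highest for Gng13 and lowest for Vsx1 per kilobase of exon. As counts per 1000000 (CPM, scaled by TMM) per kilobase of exonic length, Gng13 was at 92.9 ± 13.0 (SD, n = 12), Pcp2 at 69.4 ± 15.1, Grik1 at 55.1 ± 6.62, Cabp5 at 51.0 ± 8.55, Prkca at 47.4 ± 8.57, Grm6 at 43.9 ± 9.17, Trpm1 at 31.9 ± 4.03 and Vsx1 at 13.1 ± 2.72. Gng13 exceeded Pcp2, and Grm6 exceeded Trpm1, in all 12 controls. The ranges of Pcp2, Grik1, Cabp5, Prkca and Grm6 ran into each other, with Pcp2 above Grik1 in 8 of 12 libraries and Grik1 above Cabp5 in 5 of 12. These controls came from separate experiments, and the SD and ranges include differences between experiments. Grik1 averaged 193 and 216 CPM in the UNC1999 and UNC0642 controls, and 166 and 176 in the DZNep and Romidepsin controls. Cabp5 went the other way, at 107 and 106 CPM in the former and 145 and 145 in the latter. Among neighbours in the order, Trpm1 and Vsx1 at the bottom were the only pair whose control ranges did not overlap. With the length of the longest coding transcript in place of the exonic length, Pcp2 came first at 242 ± 52.7, above Gng13 at 99.9 ± 13.9 in all 12 libraries, so the order at the top depends on the length used.

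**Figure D1:**
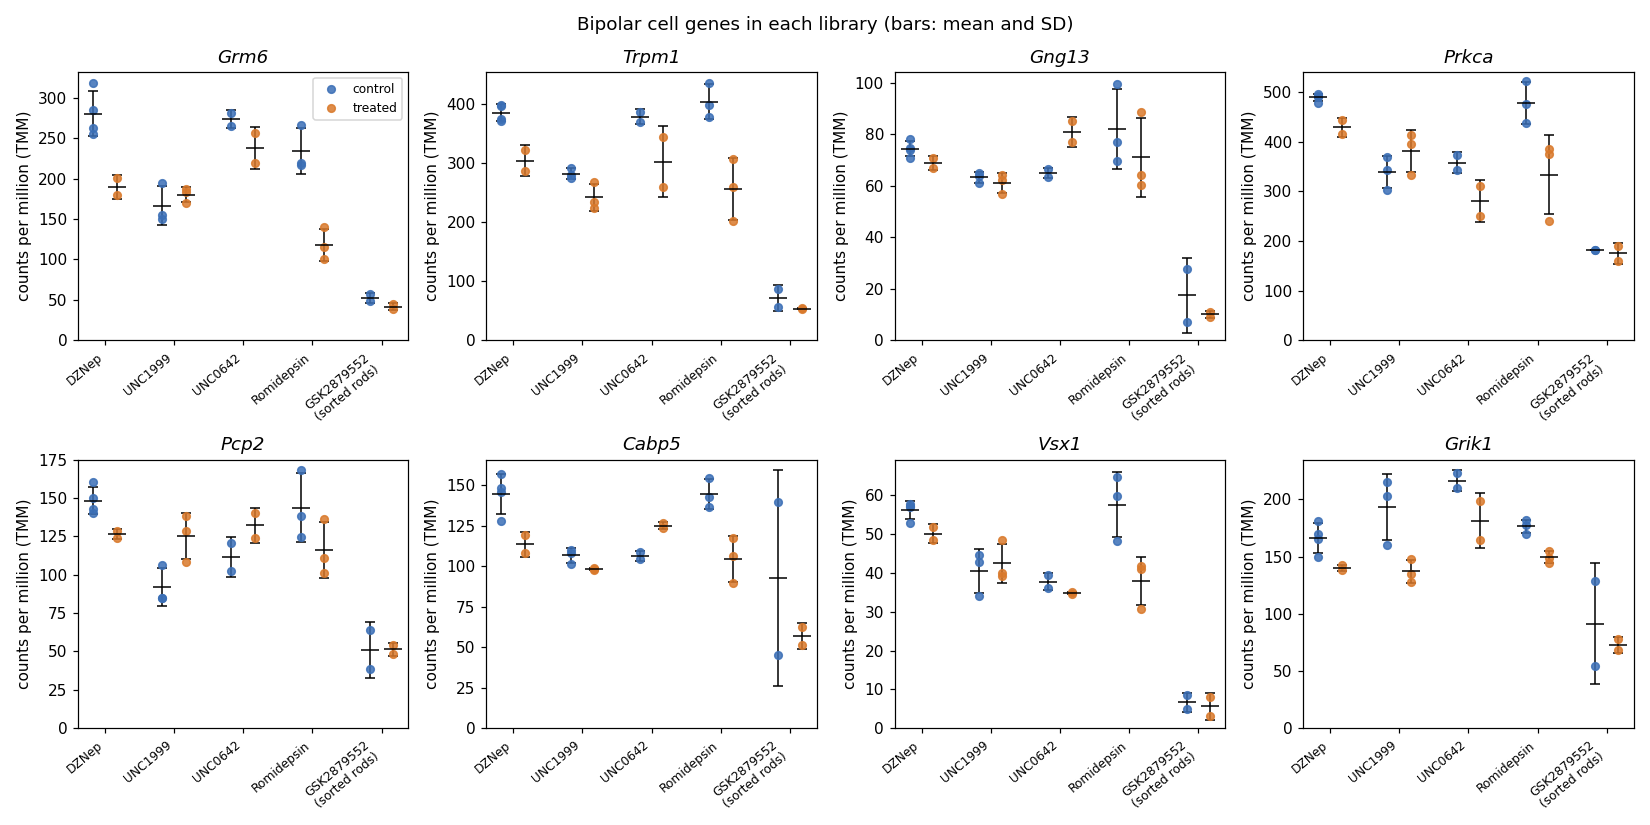
CPM (TMM scaling within each experiment) of the 8 bipolar cell genes in all 26 libraries, blue for saline controls and orange for treated samples, with the mean and SD of each group. Under DZNep both treated retinas lie below all 4 controls in every panel, under Romidepsin the same holds for 6 genes, and the sorted rods of the GSK2879552 experiment sit lowest for Grm6, Trpm1, Gng13, Prkca, Pcp2 and Vsx1.

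The bipolar cell genes were lower together, by modest amounts, after DZNep. All 8 were lower in both treated retinas than in any of the 4 controls, and 6 of 8 passed the test (edgeR quasi-likelihood test, adjusted p under 0.05), all downward. Of all 16477 genes tested, 22.7% were called in this experiment, 9.72% of all genes downward, and 21.5% lay below all controls in both treated retinas. The median log2 fold change of the 8 genes was -0.24, against -0.00057 over all genes tested. None reached an absolute log2 fold change of 1, which 1.71% of all genes did among the calls. At an unadjusted p under 0.05 there were 7 members (36.5% of all genes), and 45.9% of all genes did not overlap between groups in either direction.

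Grm6, the receptor at the head of the ON bipolar cascade, fell most. Its CPM were 256, 285, 263 and 318 in the controls and 179 and 200 after DZNep. The highest treated retina was thus below the lowest control, and the log2 fold change was -0.57 ± 0.09 (SE; adjusted p = 0.00345), or 0.676 times the control level. The channel gene Trpm1 had 376, 399, 372 and 398 CPM in the controls and 287 and 323 after DZNep. Both treated retinas lay well below the narrow control range, a log2 fold change of -0.34 ± 0.06 (adjusted p = 0.0060). Cabp5 went from 128, 148, 146 and 157 CPM to 119 and 108, a difference of -0.35 ± 0.08 on the log2 scale (adjusted p = 0.0162). The other called members moved less: Grik1 fell from 166 ± 13.2 to 140 ± 2.77 CPM (log2 fold change -0.25, adjusted p = 0.0373), Pcp2 from 148 ± 8.92 to 127 ± 3.15 (-0.23, adjusted p = 0.0245), and Prkca from 489 ± 7.92 to 429 ± 19.2 (-0.19, adjusted p = 0.0274). These 3 cover OFF bipolar cells (Grik1) as well as rod bipolar cells (Prkca). Vsx1 (56.3 ± 2.30 to 50.2 ± 2.40 CPM, adjusted p = 0.0707) and Gng13 (74.4 ± 3.00 to 68.7 ± 2.82 CPM, adjusted p = 0.155) did not pass.

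The partners of mGluR6 moved in both directions. Of the 8 measured partners, 4 were called lower: the G protein subunits Gnb3 (763 ± 25.4 to 525 ± 6.61 CPM, log2 fold change -0.54, adjusted p = 0.000751) and Gnao1 (-0.27, adjusted p = 0.0223), the GTPase-activating Rgs11 (-0.58, adjusted p = 0.00181) and the orphan receptor Gpr179 (-0.26, adjusted p = 0.0172). The other 2 called partners were higher: Gnb5 (393 ± 31.3 to 617 ± 24.7 CPM, log2 fold change 0.65, adjusted p = 0.000999) and Rgs9bp (405 ± 61.2 to 751 ± 33.7 CPM, 0.89, adjusted p = 0.00156). Gnb5 and Rgs9bp are also used by photoreceptors and Gnb3 by cones, and in sorted control rods of the GSK2879552 experiment all 3 exceeded their level in control retinas, at 277%, 496% and 137%. The remaining 2 did not pass, and Lrit3 was not matched in the table.

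Of 19 further bipolar genes, 10 were called lower and 1 higher, with a median log2 fold change of -0.24. Those with the smallest p were Kcng4, a potassium channel subunit (74.2 ± 1.40 to 55.0 ± 3.55 CPM, log2 fold change -0.44, adjusted p = 0.00121), the synaptic vesicle protein Syt2 (-0.43, adjusted p = 0.00553), the calcium-binding protein Scgn (-0.44, adjusted p = 0.0058), Lrtm1 (-0.36, adjusted p = 0.00625), the LIM homeobox factor Lhx4 (-0.24, adjusted p = 0.00883) and the kainate receptor auxiliary subunit Neto1 (-0.42, adjusted p = 0.0104). The single gene called higher, named after its value was seen, was Otx2 (0.27, adjusted p = 0.0164), a factor also expressed in photoreceptors and at 303% of the retina level in sorted control rods.

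Lists of other cell types moved in the same experiment. All 10 rod genes were called higher, and their summed level rose from between 17831 and 29933 CPM in controls to between 54968 and 56523. Of 7 Müller glia genes 6 were called lower (median log2 fold change -0.43), as were 3 of 8 amacrine genes (-0.22), 3 of 4 horizontal genes (-0.44) and 1 of 7 ganglion genes (-0.25). All 7 microglia genes were lower (median -0.77, 6 at an unadjusted p under 0.05), with none called by the quasi-likelihood test. Of 8 cone genes 6 were lower, 2 of them called, and 2 were higher (median -0.12). The ratio of the summed members to the summed amacrine genes was 1.03 to 1.10 in controls and 0.969 to 1.02 after DZNep. In whole retina, fewer cells of a type and less RNA per cell cannot be told apart, and the part of the larger rod signal in these falls was not tested. Genes of the retinal pigment epithelium, which also expresses Trpm1, rose (3 of 5 called), from a sum of 42.8 to 130 CPM to a sum of 173 to 203 CPM, while Trpm1 fell. The counts depend on the treated libraries: without treated replicate 1 no member was called by edgeR (5 had an unadjusted p under 0.05, and the adjusted p of Grm6 was 0.0573) while 6.38% of all genes still were, and without treated replicate 2 the count was 2 (Grm6 and Trpm1). Without control replicate 2 it was 3 (14.3% of all genes were called), and 7 without control replicate 1 (27.8% of all genes).

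After UNC1999, which the study describes as a more specific EZH2 inhibitor than DZNep, the members had no common direction. Of the 8 members 4 had a higher and 4 a lower mean, the median log2 fold change was 0.0050, and none was called, against 0.602% of 15775 genes. At an unadjusted p under 0.05 there were 3 (23.6% of all genes), and 4 members did not overlap between groups (27.4% of all genes). These were Pcp2 above the controls and Grik1, Trpm1 and Cabp5 below.

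Pcp2 was at 84.7, 85.0 and 106 CPM in the controls and at 139, 109 and 128 in the UNC1999 retinas, a log2 fold change of 0.44 ± 0.12 (adjusted p = 0.0825). Grik1 went the other way, with 203, 216 and 160 CPM in controls and 128, 148 and 135 after UNC1999 (-0.50 ± 0.11, adjusted p = 0.0632). Neither gene overlapped between groups, in opposite directions, and neither passed the test over all genes. Trpm1 was at 275, 292 and 281 CPM and then 225, 268 and 235 (-0.22 ± 0.08, adjusted p = 0.142). Cabp5 differed by -0.12 ± 0.05 (adjusted p = 0.237). Grm6, at 155, 150 and 195 CPM in controls and 188, 170 and 183 in treated retinas, overlapped (0.11, 95% interval -0.13 to 0.35), as did Prkca (0.17, -0.07 to 0.41), Vsx1 (0.06, -0.22 to 0.35, and -0.046 on a total-count scale) and Gng13 (-0.05, -0.20 to 0.10).

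Among the partners and the 19 further bipolar genes none was called after UNC1999 by the quasi-likelihood test, with 5 of 8 and 11 of 19 at an unadjusted p under 0.05. The likelihood ratio test and DESeq2 each called 3 partners, Gnb3 lower and Gnb5 and Rgs9bp higher, and 4 and 5 of the further bipolar genes, all lower. The rod genes summed to between 19132 and 36197 CPM in the controls and between 49123 and 66764 in treated retinas, with none of 10 called by the quasi-likelihood test (8 at an unadjusted p under 0.05, median log2 fold change 0.97) and 8 called higher by each of the other tools. Pigment epithelium genes rose (4 of 5 called, sums of 94.1 to 107 CPM in controls and 309 to 356 CPM in treated retinas), and Trpm1 was lower in all 3 of those retinas. The member count is sensitive to the method. The likelihood ratio test and DESeq2 each called 2 members, Pcp2 up and Grik1 down, out of 1641 and 1459 genes called (10.4% and 9.25%). Without control replicate 3, 3 members (these and Grm6, higher) were called, as were 16.8% of all genes.

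After UNC0642, with 2 retinas on each side, 3 members had a higher and 5 a lower mean, and none was called. No gene of 16321 passed the edgeR test (2407, or 14.7%, had an unadjusted p under 0.05), while DESeq2 called 152 genes and the likelihood ratio test 145, with no member among either. All 8 members were apart between groups, as were 52.1% of all genes, and 5 of 8 had an unadjusted p under 0.05.

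The 3 members that were higher have the shortest transcripts. Gng13 was at 66.4 and 63.5 CPM in the controls and 76.8 and 85.0 after UNC0642 (log2 fold change 0.32 ± 0.08, adjusted p = 0.299). Pcp2 was at 121 and 103 and then 124 and 140 CPM (0.24 ± 0.10, adjusted p = 0.346), and Cabp5 at 104 and 109 and then 123 and 126 (0.23 ± 0.07, adjusted p = 0.299). The 5 with longer transcripts were lower in both treated retinas, and the lowest values were all in treated replicate 2. Prkca went from 342 and 372 to 311 and 251 CPM (-0.34 ± 0.11, adjusted p = 0.305), and Trpm1 from 370 and 388 to 345 and 261 (-0.32 ± 0.13, adjusted p = 0.337). Grik1 differed by -0.25 ± 0.10, Grm6 by -0.20 ± 0.09 and Vsx1 by -0.12 ± 0.09. When each library was corrected for the GC content and length of transcripts, Gng13 was left with 0.09 and Pcp2 with -0.02, Cabp5 with 0.20, Prkca with -0.21 and Trpm1 with -0.25, again with none called. None of the 8 partners or 19 further bipolar genes was called after UNC0642 by the quasi-likelihood test (2 and 6 at an unadjusted p under 0.05) or the likelihood ratio test, with medians of -0.09 and -0.13, and DESeq2 called 1, Lrtm1, lower. The ratio of members to amacrine genes was 1.09 to 1.12 in controls and 0.942 to 1.03 after treatment.

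The largest median difference of the 5 experiments followed Romidepsin. All 8 members had a lower mean than their controls, with a median log2 fold change of -0.50 against -0.0088 over all genes, 6 lay below all 3 controls in all 3 treated retinas (12.5% of all genes did so) and 1, Grm6, was called. Of 16049 genes tested 0.748% were called, 0.174% of all genes downward, and 0.561% with an absolute log2 fold change above 1, which no member reached. Without regard to direction, 26% of all genes did not overlap between groups.

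Grm6 was at 266, 219 and 217 CPM in the controls and 140, 115 and 101 after Romidepsin. The treated level was 0.506 times the control level, a log2 fold change of -0.98 ± 0.15 (adjusted p = 0.0338). Trpm1 was at 436, 400 and 378 CPM and then 307, 203 and 260 (-0.66 ± 0.16, adjusted p = 0.0813). Vsx1 was at 64.8, 48.3 and 59.8 CPM and then 41.9, 30.7 and 41.1 (-0.60 ± 0.16, adjusted p = 0.0993). Both genes had their lowest value in treated replicate 2. So did Prkca, with 522, 476 and 437 CPM in controls and 385, 241 and 374 after treatment (-0.52 ± 0.18, adjusted p = 0.171). Cabp5 differed by -0.47 ± 0.13 (adjusted p = 0.102) and Grik1, with a narrow spread (176 ± 6.06 to 149 ± 5.09 CPM), by -0.24 ± 0.10 (adjusted p = 0.240).

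The 2 shortest transcripts overlapped between groups, with treated replicate 2 within the control range. Gng13 was at 76.9, 69.5 and 99.3 CPM in controls and 64.0, 88.7 and 60.2 after Romidepsin (-0.21 ± 0.19, adjusted p = 0.587), and Pcp2 at 138, 125 and 168 and then 111, 136 and 101 (-0.31 ± 0.16, adjusted p = 0.317). The same retina was lowest of the 3 for Trpm1, Prkca and Vsx1 and highest of the 3 for Gng13, Pcp2 and Grik1, while Grm6 and Cabp5 were lowest in treated replicate 3. With the correction for GC content and length, 7 of 8 members were called lower, all but Grik1 (adjusted p = 0.0685), with 9.24% of 14557 genes called in that fit. Corrected values were -1.01 for Grm6, -0.60 for Trpm1, -0.46 for Pcp2 and -0.37 for Gng13 (adjusted p = 0.0101, 0.0176, 0.0218 and 0.0382). That correction was chosen after the data were seen, and it also removes any effect of treatment that goes with GC content or length.

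None of the 8 partners and none of the 19 further bipolar genes was called after Romidepsin by the quasi-likelihood test, while the likelihood ratio test and DESeq2 each called 2 partners (Gnao1 lower, Gnb5 higher) and 5 further bipolar genes, all lower. Their medians were -0.24 and -0.30, with 5 of 8 and 9 of 19 at an unadjusted p under 0.05 (19.4% of all genes). Other inner retinal lists were lower too, with medians of -0.31 for amacrine, -0.36 for ganglion, -0.45 for Müller glia and -0.65 for horizontal genes, and no gene of these called by the quasi-likelihood test (5 of 8, 4 of 7, 6 of 7 and 3 of 4 at an unadjusted p under 0.05). The likelihood ratio test called 0, 3, 3 and 1 of them lower. Of the 7 Müller glia genes 1, Vim, was higher, and DESeq2 called it (log2 fold change 0.64, adjusted p = 0.0491). The fall was not confined to inner retinal lists. All 8 cone genes were lower (median -0.83, 7 at an unadjusted p under 0.05), as were all 7 microglia genes (median -0.77, 3 at an unadjusted p under 0.05). The quasi-likelihood test called none of these, and the likelihood ratio test called 6 cone and 3 microglia genes lower. Pigment epithelium genes, which rose after DZNep and UNC1999, fell here together with Trpm1. Of 5 such genes 4 were lower and 1 higher, with sums of 64.8 to 76.1 CPM in controls and 42.1 to 51.1 CPM after Romidepsin. The quasi-likelihood test called none of the 5, and the likelihood ratio test and DESeq2 each called 2 lower. The ratio of members to amacrine genes, 1.01 to 1.08 in controls and 0.878 to 0.941 after Romidepsin, did not overlap between groups. Nor did it in the DZNep and UNC0642 experiments. The latter had only 2 retinas on each side, and there 3 members were higher and 5 lower. The ratio overlapped in the UNC1999 experiment, at 0.945 to 1.01 in controls and 0.952 to 0.984 in treated retinas. Rod genes summed to 15066 to 24554 CPM in controls and 24190 to 32014 after treatment, and their part in the lower member levels was not tested. The call of Grm6 was lost when any 1 control or treated replicate 3 was left out, and no gene was called by edgeR without control 2, control 3 or treated 3 (2208, 2526 and 2477 genes at an unadjusted p under 0.05). The likelihood ratio test and DESeq2 each called 4 members, and 7.38% and 6.69% of all genes.

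**Figure D2:**
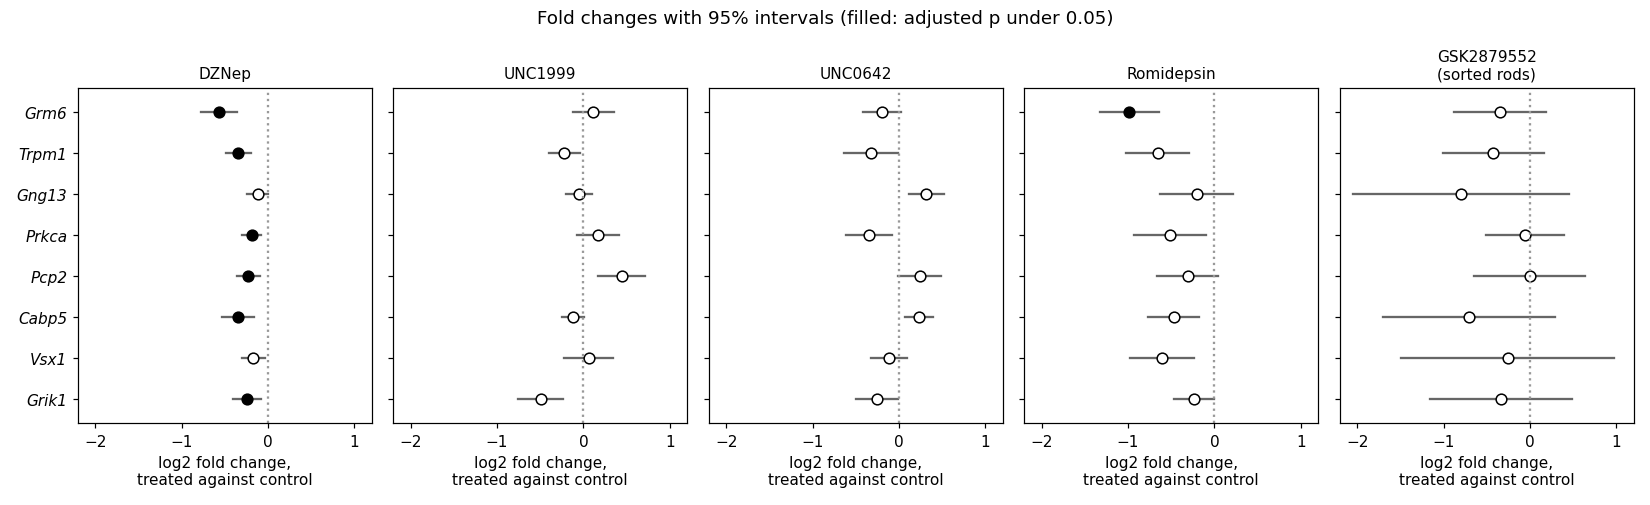
Log2 fold change of each bipolar cell gene, treated against its own controls, with 95% intervals from the edgeR fit; filled points passed an adjusted p of 0.05. Filled points are 6 under DZNep and Grm6 under Romidepsin, the UNC1999 and UNC0642 panels hold values on both sides of 0, and the intervals in sorted rods are the widest.

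Whether treatments differed from each other was tested directly, as the difference of 2 effects in 1 fit of all 22 retinas. Over 6 pairs of treatments and 8 genes, 4 of 48 differences passed, all between UNC1999 and Romidepsin, a pair in which 5.11% of 17274 genes passed. Relative to Romidepsin, UNC1999 left Grm6 higher by 1.09 ± 0.17 on the log2 scale (adjusted p = 0.00373), Pcp2 by 0.75 ± 0.18 (adjusted p = 0.0255), Vsx1 by 0.66 ± 0.18 (adjusted p = 0.0361) and Prkca by 0.69 ± 0.19 (adjusted p = 0.0425). Trpm1 (0.43, 95% interval 0.08 to 0.78), Cabp5 (0.35, 0.09 to 0.61), Gng13 (0.15, -0.23 to 0.53) and Grik1 (-0.26, -0.55 to 0.03) did not pass. Grik1 was the 1 member whose effect was lower under UNC1999.

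The difference in Grm6 was called whichever of the 22 retinas was left out (0.99 to 1.22), that in Pcp2 in 16, Vsx1 in 13 and Prkca in 7. Of the 48 differences only 1 passed without Romidepsin control 1 or without UNC1999 control 1, control 2 or treated 1, 2 passed without Romidepsin control 3, UNC1999 treated 2 or either DZNep treated retina, and 8 passed without Romidepsin treated 1. UNC1999 libraries form a series of their own in the labels, so a difference between series or vehicles cannot be told apart from one between compounds. The starting levels differed too. Scaled within each experiment, the members summed to 1283 ± 58 CPM in the UNC1999 controls and 1721 ± 93 in the Romidepsin controls. After Romidepsin they summed to 1187 ± 121 CPM. The part of the starting level in these differences was not tested.

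No member passed in the other 5 pairs, in which 0.289% (DZNep and Romidepsin), 0.0232% (DZNep and UNC0642), 0.0174% (UNC0642 and Romidepsin), 0.0116% (UNC1999 and UNC0642) and 0.00579% (DZNep and UNC1999) of all genes did. The nearest was Cabp5 between UNC0642 and Romidepsin (0.70 ± 0.14, adjusted p = 0.0615), followed by Grm6 in the same pair (0.78 ± 0.19, adjusted p = 0.106). The EZH2 inhibitors DZNep and UNC1999 differed most in Grm6 (-0.67, 95% interval -1.05 to -0.29) and Pcp2 (-0.67, -1.06 to -0.27), with no adjusted p under 0.268 among the 8 genes. Of the 48 differences 19 had an unadjusted p under 0.05.

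**Figure D3:**
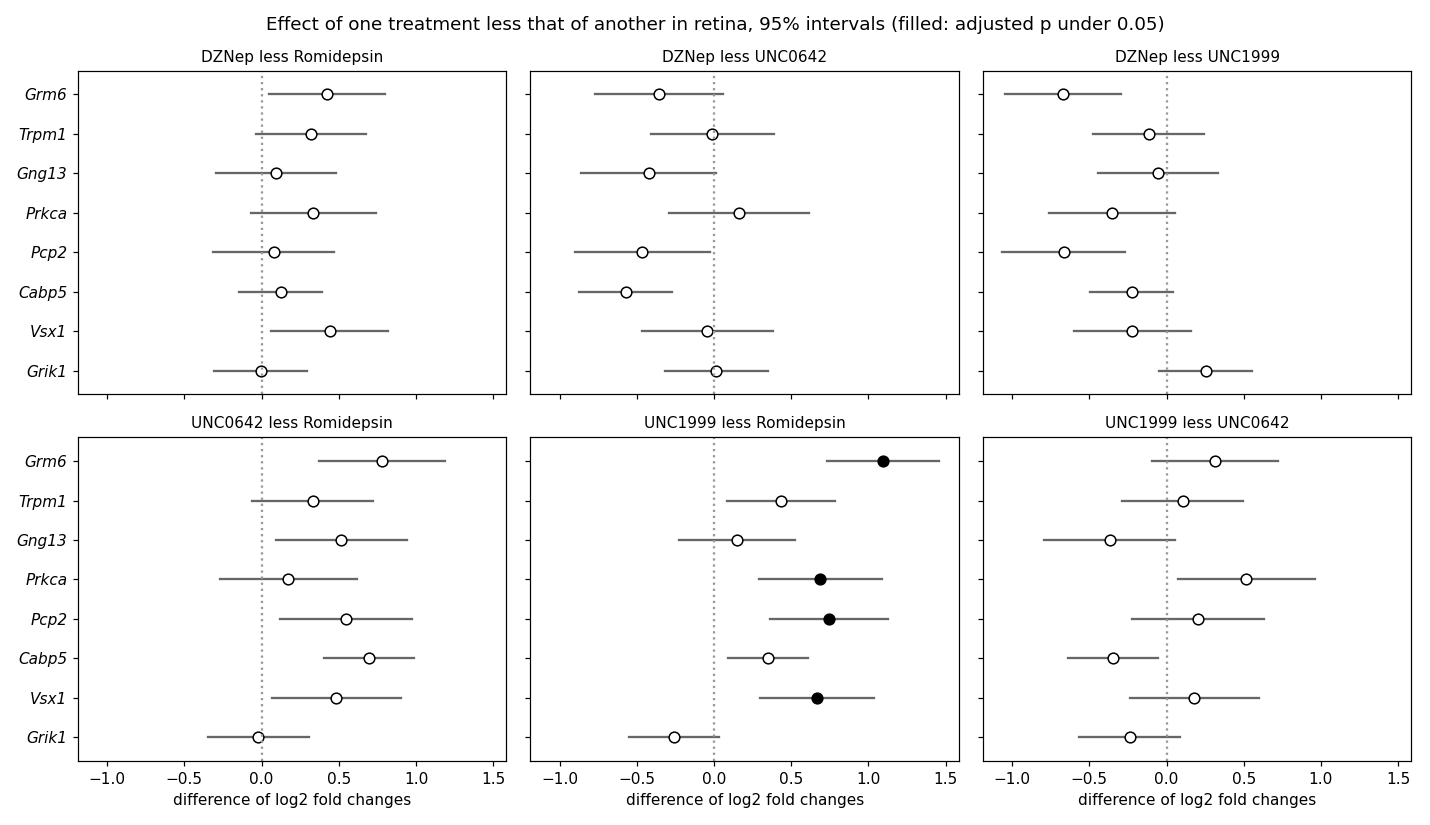
Difference between the log2 fold changes of 2 treatments for each bipolar cell gene and each of 6 pairs, with 95% intervals from a single fit of 22 retinas; filled points passed an adjusted p of 0.05. The 4 filled points are Grm6, Prkca, Pcp2 and Vsx1 in the panel of UNC1999 less Romidepsin, all to the right of 0.

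Retinas of the same group also differed in the balance between the 2 shortest and the 2 longest transcripts. After the mean of each group was taken off, Gng13 and Pcp2, the shortest transcripts, correlated at r = 0.85 over the 22 retinas, and Trpm1 and Prkca, the longest, at r = 0.83. Across these pairs the sign was opposite, with r = -0.63 between Trpm1 and Gng13 and -0.68 between Prkca and Gng13. The members between them in length followed neither pair throughout: Grm6, the third longest, had r = 0.42 with Trpm1 and 0.34 with Pcp2. Pcp2 and Gng13 also have the highest GC content of the members (59.0% and 58.7%), so length and GC content cannot be told apart here. Of the 28 pairs of members 18 had a positive r, with a median of 0.16. With the library correction for GC content and length, the r of Prkca and Gng13 was 0.48, that of Trpm1 and Gng13 0.12, and 25 of 28 pairs were positive with a median of 0.39. Grik1, the OFF bipolar gene, then ranged from -0.33 with Pcp2 to 0.51 with Trpm1. The points share libraries, depth and base composition, and these are descriptions.

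**Figure D4:**
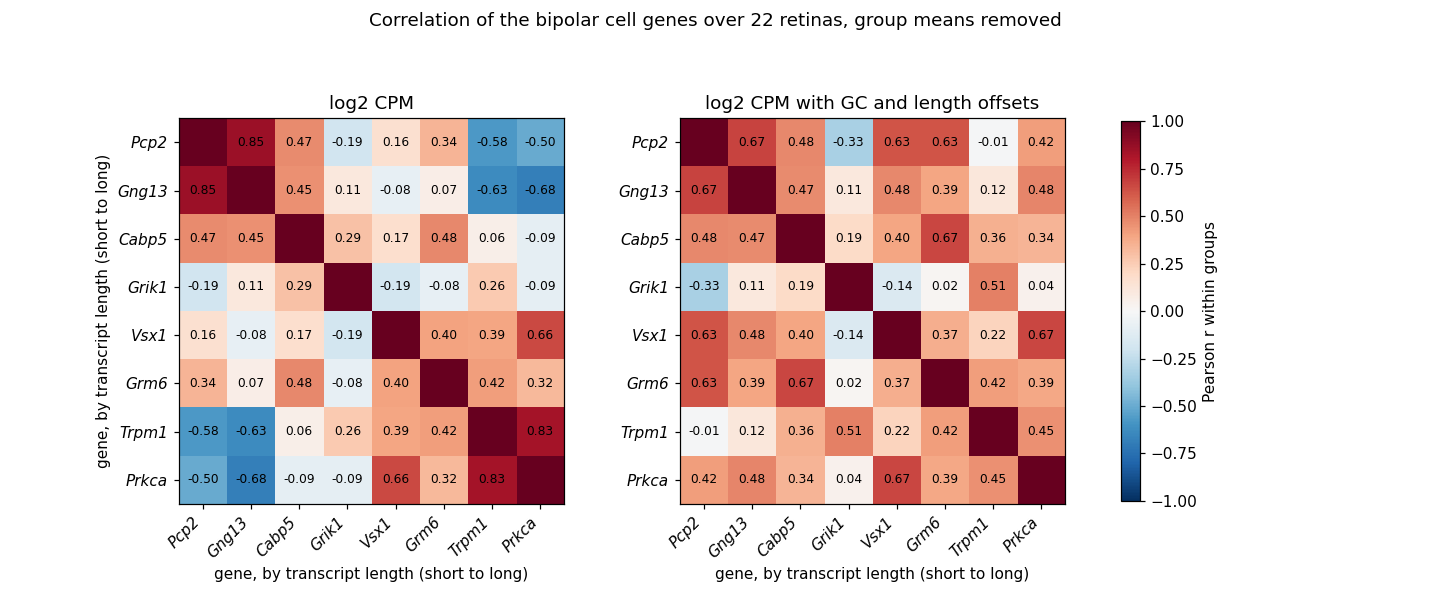
Pearson r between each pair of bipolar cell genes over 22 retinas after the group means were removed, with genes in order of transcript length, on log2 CPM (left) and after offsets for GC content and length (right). At left the 2 shortest and the 2 longest transcripts form opposing blocks (0.85, 0.83 and down to -0.68), and at right 25 of 28 pairs are positive.

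Of 17266 other genes, the 5 whose within-group pattern over the 22 retinas was most like the mean of the members were Gm15348 (r = 0.93), Trim32 (r = 0.91), Slc24a3 (r = 0.90), Cnnm1 (r = 0.89) and Tacr3 (r = 0.89). Tacr3, a tachykinin receptor of OFF bipolar cells, is one of the 19 further bipolar genes listed.

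In sorted rods no change in the members was detectable after GSK2879552. None was called and none had an unadjusted p under 0.05 (0 and 4.91% of 14478 genes), and the other tools called 43 (DESeq2) and 71 (likelihood ratio test) genes with no member among them. Only Grm6 and Trpm1 did not overlap between groups (33.2% of all genes). Grm6 was at 48.2 and 57.0 CPM in the controls and 44.5 and 38.4 after GSK2879552 (-0.34, 95% interval -0.87 to 0.19), and Trpm1 at 56.6 and 86.9 and then 54.6 and 52.7 (-0.42, -1.01 to 0.16). For all members but Grm6 and Prkca, Trpm1 included, the 2 controls differed from each other by more than the group means did. Cabp5 was at 45.2 CPM in control 1 and 140 in control 2, with 62.7 and 51.2 in the treated rods. Gng13 was at 7.09 and 27.8 CPM in the controls and 11.1 and 9.18 in the treated rods. Control 1 is the shallowest library of the series, at 7289460 counts. The median log2 fold change, -0.34, became 0.26 without control 2 and -0.64 without control 1, so no direction is given. None of the 8 partners or of the 18 further bipolar genes tested was called by the quasi-likelihood test (1 and 2 at an unadjusted p under 0.05), with medians of -0.04 and -0.31, while the likelihood ratio test and DESeq2 called 1 of these, Gnb3, lower (-1.20 and -1.19).

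The sorted control rods held less of the bipolar genes than whole control retinas, but more of them than of most inner retinal markers. On a total-count scale the members were at 13.3% (Vsx1), 19.4% (Trpm1), 21.7% (Grm6), 23.7% (Gng13), 39.6% (Pcp2), 42.1% (Prkca), 48.6% (Grik1) and 70.1% (Cabp5) of their mean in the 12 control retinas. The median was 31.6%, against 18.3% for the 19 further bipolar genes, 3.15% for 8 amacrine genes, 5.34% for 7 Müller glia genes, 1.39% for 4 horizontal genes and 0.137% for 7 ganglion genes. Rod genes were at a median of 372% and cone genes at 129%. Prkca, the rod bipolar marker, was nearly the same in both sorted controls (186 and 179 CPM), whereas Cabp5 (46.4 and 137) and Grik1 (55.4 and 126) differed widely. The further bipolar genes spread widely, from 0.874% (Neto1) and 1.56% (Irx5) at the bottom to 67.8% (Kcng4), 68.4% (Scgn) and 303% (Otx2). Irx5 was too low to be tested in the sorted rods. Preparation and library series differ between rods and retinas, and the kit is described in conflicting ways, so these shares are descriptions without a test.

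**Figure D5:**
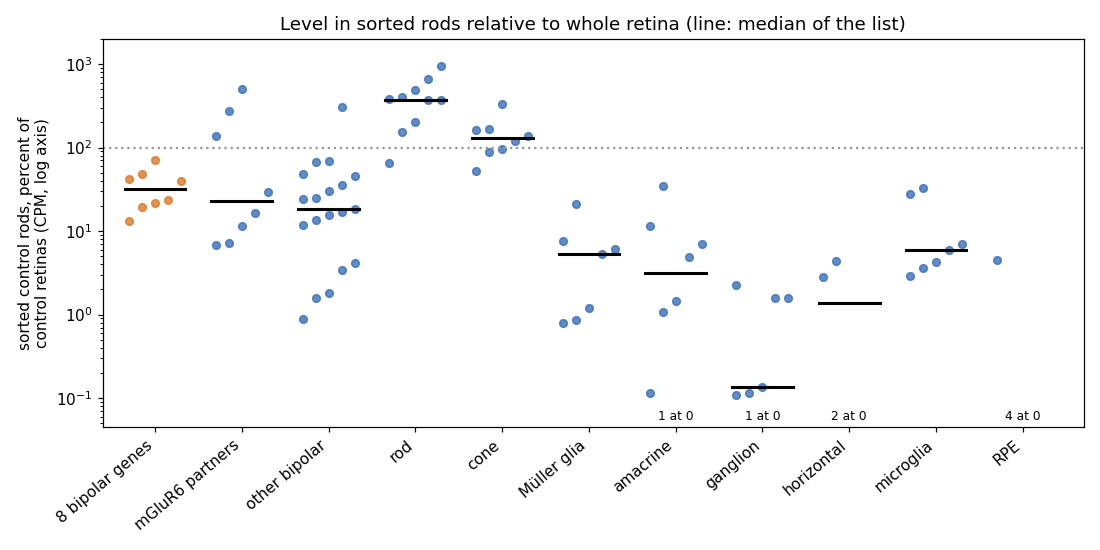
Mean level in the 2 sorted control rod libraries as a percentage of the mean in 12 control retinas (CPM on total counts, log axis), 1 point per gene and a line at each list's median; genes at 0 are counted at the bottom. The median of the 8 bipolar genes (31.6%) sits between those of the photoreceptor lists and those of the amacrine, horizontal and ganglion lists, while single genes overlap on both sides.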

How the data were processed

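RNA-seq was analysed from 22 whole retinas and 4 libraries of sorted rods. The deposited table holds raw counts for 37991 genes: the authors trimmed reads with BBDuk, aligned them with HISAT2 2.2.1 to NCBIM37/mm9 and counted them with HTSeq 0.11.2 on the Ensembl annotation. The labels give a stranded mRNA kit for every library, whereas the study's methods give SMART-Seq for sorted rods. The DZNep schedule is also described in 2 ways, as daily and as every second day later on.

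Each treatment was tested against its own controls with edgeR 4.0.16 in R 4.3.3 (filterByExpr, TMM, quasi-likelihood F test, limma 3.58.1 loaded), with Benjamini-Hochberg adjustment over all genes tested and calls at 0.05. Levels are CPM, and the error of a mean is the SD. Differences between treatments were contrasts in 1 fit of the 22 retinas, adjusted over 17274 genes within a pair. The named genes are the 8 members, and of other lists the called genes with the smallest p, at most 6 per comparison. The members and lists were chosen with earlier results of these data known. The test was checked on simulated counts. Also tried were DESeq2 1.42.0 and the likelihood ratio test, RLE and total-count scaling, other count filters (none, or at least 10 counts in every library), a replicate block, a fold threshold of 1 on the log2 scale, 1 fit of all retinas, offsets for transcript GC content and length, and leaving out each library. Retina libraries held 13732959 to 36354094 counts and sorted rods 7289460 to 19864491. No library was a copy of another in its own group, and pairs across groups were not compared.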

Additional observations from a re-analysis of the deposited data

Results flagged for a closer look

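The effects of UNC1999 and Romidepsin differed for 4 bipolar cell genes in a test of the difference itself (edgeR quasi-likelihood contrast, 22 retinas), as they did for 5.11% of 17274 genes. The log2 difference, UNC1999 less Romidepsin, was 1.09 for Grm6 (adjusted p = 0.00373), 0.75 for Pcp2 (adjusted p = 0.0255), 0.69 for Prkca (adjusted p = 0.0425) and 0.66 for Vsx1 (adjusted p = 0.0361). Grm6 was lower in 3 of 3 Romidepsin retinas than in any of their controls and overlapped with the controls after UNC1999. Leaving out each of the 22 retinas in turn, Grm6 was called 22 times, Pcp2 16, Vsx1 13 and Prkca 7 times, with the count of differences down to 1 without Romidepsin control 1 or UNC1999 control 1, control 2 or treated 1.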

How the results depend on the processing

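The number of members called depended on the method more than their direction did. The share of all genes called in the same setting is given in brackets. For DZNep the member count was 6 (22.7%). It was 2 with the replicate block (8.59%) and 2 with all 22 retinas in 1 fit (7.72%). It was 0 with the fold threshold (1.71%) and 8 on total counts (30.5%). For UNC1999 it was 0 (0.602%). It was 2 by the likelihood ratio test (10.4%) and by DESeq2 (9.25%). It was also 2 without a count filter (4.52%) and with all retinas in 1 fit (8.37%), and 1 on total counts (5.48%). For UNC0642 it was 0 (0%), and 2 without a count filter (4.55%). For Romidepsin it was 1 (0.748%). It was 4 by the likelihood ratio test (7.38%), 4 by DESeq2 (6.69%) and 2 without a count filter (2.86%). With all retinas in 1 fit it was 5 (17.3%), with the fold threshold 0 (0.561%) and with GC and length offsets 7 (9.24%). The differences between treatments numbered 4, and 7 by the likelihood ratio test. On total counts the median of the members was -0.35 after DZNep and -0.10 after UNC1999, where the median of all genes moved to -0.12 and -0.11. The cause of these shifts was not tested. Leaving out 1 library each, the count ranged from 0 to 7 for DZNep (median -0.28 to -0.20), 0 to 3 for UNC1999 (-0.064 to 0.055), 0 to 0 for UNC0642 (-0.22 to -0.10), 0 to 2 for Romidepsin (-0.60 to -0.45) and 0 to 0 for GSK2879552 (-0.64 to 0.26), and the differences from 1 to 8. Where an arm kept 1 library, it was assumed to vary like the other group.

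Directions turned for Vsx1 after UNC1999 (-0.046 on total counts, -0.048 to 0.14 leaving out 1 library) and for Pcp2 after UNC0642 (-0.017 with offsets). In sorted rods Pcp2 turned with DESeq2 (0.0065), RLE (0.0058), at least 10 counts (0.011), the replicate block (0.048) and offsets (0.21). There, leaving out 1 library gave -1.45 to 0.52 for Gng13, -0.32 to 0.42 for Pcp2, -1.29 to 0.33 for Cabp5, -1.15 to 0.26 for Vsx1, -0.82 to 0.43 for Grik1 and -0.18 to 0.065 for Prkca. No direction turned after DZNep or Romidepsin under the alternatives run.

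Replicate numbers are shared by control and treated groups, and the labels name no pairing. The correlation of deviations between libraries of the same number ran from -0.279 to 0.230. In a group of 2 libraries the deviations mirror each other, so these values cannot decide whether libraries were paired. For UNC0642 both values were 0.213. The replicate block moved the genes called from 3734 to 1415 for DZNep, 95 to 30 for UNC1999, 0 to 589 for UNC0642, 120 to 97 for Romidepsin and 0 to 3 for GSK2879552.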
